A study of Mus musculus with 4 samples.

Results

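Among the progenitors of mouse bone marrow, 181 of 13619 nuclei passed a rule on summed transcripts of genes taken as markers of lymphoid-primed multipotent progenitors. Described here are the RNA and the open chromatin of these nuclei. They were chosen by the summed raw unique molecular identifiers (UMIs, each 1 captured RNA molecule) of Flt3, Dntt, Cmah, Sema3d, St8sia1 and Mn1, which had to reach 4, with no more than 1 UMI of Ebf1 and Pax5 together and no UMI of Siglech. The 2 exclusions aim at committed B cell precursors and plasmacytoid dendritic cell precursors, and precursors in which these transcripts were not captured can remain. These are called Flt3/Dntt nuclei below (members in the plots), and all remaining nuclei that passed the same quality limits are the other nuclei. Because the 6 genes and the 3 exclusion genes chose the nuclei, their RNA levels are given as a description.

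The study sorted Lin-cKit+ cells, which lack the surface markers of mature lineages and carry the Kit receptor, from femurs and tibiae of wild-type C57BL/6 male mice 8 weeks old, with the marrow of several mice pooled into each sample. One Ctrl sample came from unligated mice and one Lig sample from mice whose molars had been tied with silk ligatures for 14 days, a model of periodontitis, and no group carried any engineered allele. From each sample, nuclear RNA and transposase-accessible chromatin (ATAC) were read in the same nuclei. The deposited matrix holds barcodes of 2 libraries told apart only by a suffix whose sample is not given by the labels. They are called library 1 and library 2 here, neither is placed in Ctrl or Lig, and nothing that differs between them can be assigned to ligature. With 1 library of each kind nothing was tested, and every interval below is an exact 95% interval that covers counting error only.

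In library 1, 5905 of 8762 barcodes had at least 200 genes and 1000 to 50000 ATAC counts, and 135 of them were Flt3/Dntt nuclei, a share of 2.29% (1.92 to 2.70). In library 2, 7714 of 10199 barcodes passed and 46 were chosen, a share of 0.596% (0.437 to 0.795). Median UMIs per nucleus were 1950 in the Flt3/Dntt nuclei and 1633 in the others of library 1, and 1671 and 1515 in library 2. Median ATAC counts were 18119 and 19491.5 in library 1 and 15184.5 and 16299.5 in library 2. Transcripts annotated at the ribosomal RNA locus (Gm42418, Gm26917 and AY036118) took 37.5% of the UMIs of Flt3/Dntt nuclei and 43.2% of those of the others in library 1, and 50.8% and 53.2% in library 2. A set of 72 barcode sequences occurred in both libraries among the kept nuclei, and 0 of them involved a Flt3/Dntt nucleus. Kit, the receptor used in the sort, stood at 170 CPM (UMIs per 1000000 UMIs of the same nuclei) in the Flt3/Dntt nuclei and 137 in the others of library 1, and at 83.0 and 73.3 in library 2.

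Lymphoid-primed multipotent progenitors descend from haematopoietic stem cells, have largely given up the megakaryocyte and erythroid fates, and can still give rise to lymphoid and granulocyte-monocyte cells. They are known for high surface FLT3, a receptor tyrosine kinase whose ligand supports early lymphoid and dendritic progenitors, and for the first transcripts of lymphoid genes such as Dntt, which encodes terminal deoxynucleotidyl transferase, the enzyme that adds untemplated nucleotides at V(D)J joints. Such cells are read as primed, not committed, while the B lineage factors EBF1 and PAX5 remain low.

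The chromatin of these nuclei was not used to choose them, and the windows below carry what it showed. Each is the central 300 bases of an ATAC peak in GRCm38, on the plus strand. Capitals mark matches, on either strand, to the consensus letters of PU.1 (GAGGAAGT), RUNX (TGTGGTT), CEBP (TTGCNNAA) and the E-boxes CAGCTG and CAGGTG, which bHLH factors such as the E proteins bind. The first 4 rank 1, 2, 3 and 6 by gain in both libraries among peaks with at least 5 expected counts (rank 4, in an exon, and rank 5 are not printed), the fifth lies upstream of Dntt (-6845 bases from its start), and the last pair comes from peaks with 0 counts in the Flt3/Dntt nuclei of both libraries.
Nr4a1 intron, chr15:101258555-101258854: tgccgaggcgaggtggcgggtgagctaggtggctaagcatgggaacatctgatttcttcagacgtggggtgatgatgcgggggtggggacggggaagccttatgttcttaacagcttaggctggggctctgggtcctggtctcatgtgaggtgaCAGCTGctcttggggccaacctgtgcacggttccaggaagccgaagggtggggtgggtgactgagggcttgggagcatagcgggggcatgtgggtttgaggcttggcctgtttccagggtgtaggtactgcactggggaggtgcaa
downstream of Mn1, chr5:111553543-111553842: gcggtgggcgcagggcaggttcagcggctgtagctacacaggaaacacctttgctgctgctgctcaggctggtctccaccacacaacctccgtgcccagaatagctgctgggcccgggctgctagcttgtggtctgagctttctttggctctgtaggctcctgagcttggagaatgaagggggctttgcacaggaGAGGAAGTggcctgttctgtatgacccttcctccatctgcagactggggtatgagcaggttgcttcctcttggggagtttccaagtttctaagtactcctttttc
Rtn4rl1 intron, chr11:75227687-75227986: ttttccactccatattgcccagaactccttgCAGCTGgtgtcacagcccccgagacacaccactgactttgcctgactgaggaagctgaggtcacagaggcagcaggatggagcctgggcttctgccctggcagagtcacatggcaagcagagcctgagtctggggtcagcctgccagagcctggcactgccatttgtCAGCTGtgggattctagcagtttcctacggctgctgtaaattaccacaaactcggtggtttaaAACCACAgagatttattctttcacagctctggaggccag
Shb intron, chr4:45473202-45473501: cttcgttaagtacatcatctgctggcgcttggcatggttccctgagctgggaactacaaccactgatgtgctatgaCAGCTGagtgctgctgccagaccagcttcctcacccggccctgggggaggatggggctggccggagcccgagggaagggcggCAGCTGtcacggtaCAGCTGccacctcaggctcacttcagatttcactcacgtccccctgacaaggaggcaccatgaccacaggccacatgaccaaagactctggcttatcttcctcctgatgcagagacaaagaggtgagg
upstream of Dntt, chr19:41022280-41022579: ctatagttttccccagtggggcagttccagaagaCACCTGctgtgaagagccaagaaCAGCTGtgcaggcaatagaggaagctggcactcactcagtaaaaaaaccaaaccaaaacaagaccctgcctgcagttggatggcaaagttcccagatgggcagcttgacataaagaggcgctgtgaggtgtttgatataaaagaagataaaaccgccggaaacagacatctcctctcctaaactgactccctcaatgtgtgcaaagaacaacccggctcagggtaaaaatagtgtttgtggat
Fam49b intron, chr15:64040817-64041116: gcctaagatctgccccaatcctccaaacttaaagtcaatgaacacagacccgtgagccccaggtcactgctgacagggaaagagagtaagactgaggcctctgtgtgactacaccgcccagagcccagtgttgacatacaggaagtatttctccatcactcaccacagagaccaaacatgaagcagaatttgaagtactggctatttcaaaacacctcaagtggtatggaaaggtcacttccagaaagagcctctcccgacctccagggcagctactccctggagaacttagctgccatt
far from Fzd1, chr5:4530420-4530719: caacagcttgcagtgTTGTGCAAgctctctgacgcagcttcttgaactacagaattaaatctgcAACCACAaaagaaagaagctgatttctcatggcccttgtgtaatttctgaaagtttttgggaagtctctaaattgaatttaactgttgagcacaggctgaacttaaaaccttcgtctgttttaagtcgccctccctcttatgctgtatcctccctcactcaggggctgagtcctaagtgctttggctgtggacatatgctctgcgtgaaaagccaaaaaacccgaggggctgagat
CAGCTG occurred 3 times in the Shb window, 2 times in the Rtn4rl1 window, once in the Nr4a1 window and 0 times in the Mn1 window. It also occurred once in the Dntt window, whose peak had a log2 ratio of 0.95 in library 1 and so was not called higher. The windows were chosen after the values were seen, and the share of CAGCTG over all gained peaks is given further on. The Fam49b window held no match to these letters, and the window far from Fzd1 held 1 CEBP and 1 RUNX match.

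For comparison, the RefSeq promoter of Flt3, printed because the receptor is one of the genes that chose these nuclei and its promoter peak is among the loci measured, held none of the letters above and had a GC content of 61%. It is given on the minus strand, 5′ to 3′, in GRCm38.p6.
Flt3 promoter, chr5:147400440-147400739: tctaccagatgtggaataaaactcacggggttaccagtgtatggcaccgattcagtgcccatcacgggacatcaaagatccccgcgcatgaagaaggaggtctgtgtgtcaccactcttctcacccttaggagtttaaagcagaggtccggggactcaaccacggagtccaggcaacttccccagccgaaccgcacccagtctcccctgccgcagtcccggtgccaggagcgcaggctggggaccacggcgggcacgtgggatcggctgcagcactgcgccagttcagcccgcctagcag
Over 32851 RefSeq promoters of this length, 3.20% held GAGGAAGT, 5.27% TGTGGTT, 16.3% CAGCTG, 20.2% CAGGTG and 10.8% TTGCNNAA.

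Flt3 and Dntt together made up most of the UMIs that selected the nuclei. Flt3 supplied 43.8% of them in library 1 and 37.9% in library 2, Dntt 26.6% and 28.9%, and Cmah, the hydroxylase that makes the sialic acid Neu5Gc, 22.0% and 25.1%. Both Flt3 and Dntt were seen in 80 of 135 nuclei in library 1 and 25 of 46 in library 2. Flt3 without Dntt was seen in 39 and 13, Dntt without Flt3 in 13 and 6, and neither in 3 and 2. Most nuclei sat close to the threshold. Exactly 4 UMIs were counted in 42 Flt3/Dntt nuclei of library 1 and 30 of library 2, and 91 and 74 further nuclei fell just outside at 3. The highest sums were 16 and 10. The exclusions removed 44 and 5 nuclei that had reached 4 by Ebf1 and Pax5 and 5 and 1 by Siglech, while 20 and 7 chosen nuclei carried 1 UMI of Ebf1 or Pax5.

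**Figure D1:**
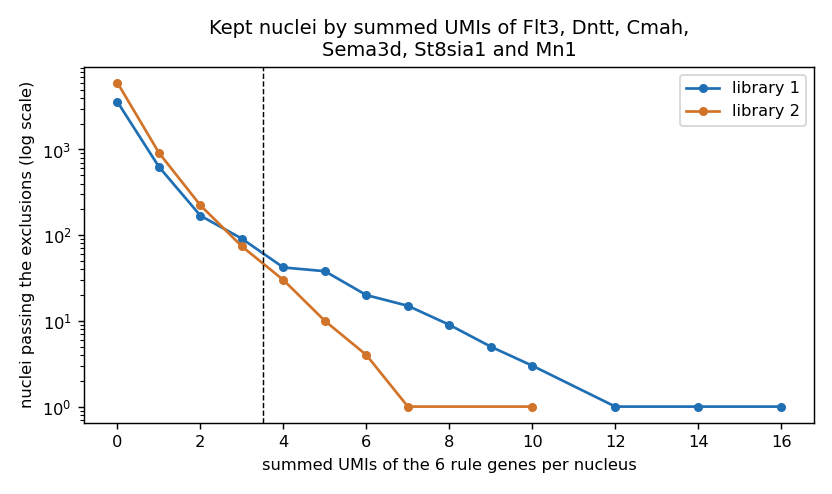
Number of kept nuclei that passed the exclusions (log scale) at each sum of UMIs over the 6 genes, for library 1 (blue) and library 2 (orange), with the threshold of 4 as a dashed line. The counts fell without a gap across the threshold, from 91 and 74 nuclei at 3 to 42 and 30 at 4, and library 1 reached 16 where library 2 reached 10.

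Flt3 (ENSMUSG00000042817, GRCm38 chr5:147330741-147400489, minus strand) stood at 1199 CPM in the Flt3/Dntt nuclei of library 1 and 101 in the others, and at 948 and 79.7 in library 2. At least 1 Flt3 UMI was found in 88.1% of the chosen nuclei of library 1 and 13.4% of the others, and in 82.6% and 11% in library 2. With nuclei thinned to 1000 UMIs these shares were 67.7% and 8.7% in library 1 and 69.8% and 7.3% in library 2, over 130 and 4735 nuclei of library 1 and 43 and 6526 of library 2, since 5 and 1035, and 3 and 1142, nuclei with fewer UMIs were left out. Erythroid-marker nuclei, with 2 or more UMIs over a set of erythroid genes that includes Gata1, Klf1, Car1, Ank1 and Epor, should lack the receptor, and 5.6% of them in library 1 (median 2209 UMIs) and 4.2% in library 2 (median 1853 UMIs) had a Flt3 UMI. That background rests on 4 of 72 and 1 of 24 nuclei.

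Dntt (ENSMUSG00000025014, chr19:41029275-41059525, plus strand) was measured at 727 against 76.6 CPM in library 1 and 723 against 38.4 in library 2. It was not particular to the chosen nuclei. B-marker nuclei, those with 2 or more UMIs of Ebf1 and Pax5, held 54.1% of all Dntt UMIs of library 1 and 19.1% of those of library 2, at 251 and 158 CPM, while the Flt3/Dntt nuclei held 21.1% and 11.3%. Of the Flt3 UMIs, the chosen nuclei held 25.02% and 7.46%, and nuclei with sums of 1 to 3 held 57.2% and 86.8%, beside 23.7% and 68.3% of the Dntt UMIs. Cmah (ENSMUSG00000016756) was at 603 against 32.0 CPM and 628 against 16.3, and 34.7% and 20.7% of its UMIs lay in the chosen nuclei.

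The 3 sparser genes were each counted in few molecules. Sema3d, a secreted guidance protein of the semaphorin family, was at 74.5 against 4.99 CPM in library 1 and 47.4 against 3.85 in library 2. St8sia1, which makes the ganglioside GD3, was at 74.5 against 4.29 and 94.8 against 3.69. Mn1, a transcriptional coregulator, was at 60.3 against 3.5 and 59.3 against 1.69. Of the exclusion genes, Ebf1 was at 56.8 against 999 CPM in library 1 and 71.1 against 147 in library 2. The B-marker nuclei, which are defined by Ebf1 itself and Pax5, made up 21.2% of library 1 and 5.51% of library 2.

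Beyond the genes that chose them, the Flt3/Dntt nuclei had higher RNA of genes such as Satb1, Mef2c and Rnf220 and lower RNA of genes such as Mpo, Ctsg and F13a1. A gene was called when its CPM ratio passed 2-fold the same way in both libraries. Of 10614 genes that reached 20 UMIs over both classes of nuclei in library 1 and again in library 2, 408 were higher (3.84%) and 983 lower (9.26%), a split in which 29.3% of calls were higher. With median-of-ratios scaling that share was 15.5%, and the median log2 ratio over all genes moved from 0.12 to -0.08 in library 1 and from -0.20 to -0.70 in library 2. That scaling took its factor only from genes with a UMI in the chosen nuclei and left out those at 0. In library 2 it thus moved the median further from 0. Most of the 408 and 983 calls rested on almost no molecules. Of the 983 lower genes, 942 had 0 UMIs in the chosen nuclei of a library, and of the 408 higher ones 307 had under 5. The 1049 genes for which the rate in the other nuclei predicted at least 5 UMIs in the chosen nuclei of each library are therefore the ones described first. The median log2 ratio over all 1049 was 0.15 in each library. Among them 23 were higher (2.19%) and 19 lower (1.81%), which leaves 22 and 18 without Flt3 and Ebf1. Of the 22, 15 still passed 2-fold with the ribosomal RNA locus left out of the totals and 6 with median-of-ratios scaling (Satb1, Mef2c, Rnf220, Maml3, Msi2 and 2610307P16Rik). All 18 lower genes passed under both, but both settings lower the ratios, so no lower call could be lost. With a threshold of 3 summed UMIs, 8 of the 18 stayed called, and with at least 500 genes per nucleus 10.

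Of the 22 higher genes, Satb1, a chromatin organiser needed in early lymphoid cells, was at 607 CPM in the Flt3/Dntt nuclei and 163 in the others of library 1, and at 403 and 82.1 in library 2, a ratio of 3.73 (3.17 to 4.37) and 4.91 (3.38 to 6.91). Mef2c, a factor that favours lymphoid over myeloid fate, was at 1646 against 592 and 948 against 261, ratios of 2.78 (2.53 to 3.06) and 3.63 (2.87 to 4.53). Ikzf1 (Ikaros) was at 731 against 363 and 356 against 169, barely past 2-fold, and did not pass without the ribosomal RNA locus, at log2 ratios of 0.87 and 0.997, nor did Zmiz1, at 0.90 and 1.15, or Tcf4. Tcf4, an E protein, was at 720 against 337 and 486 against 157. Runx2 was at 536 against 167 and 190 against 69.6, and Maml3, a coactivator of Notch, at 1266 against 368 and 474 against 123. Aff3, Zmiz1, Auts2 and Phf14, which encode nuclear proteins, had log2 ratios of 1.21 and 1.36, 1.04 and 1.22, 1.32 and 1.23, and 1.21 and 1.39.

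Rnf220, which encodes an E3 ubiquitin ligase, had the most UMIs of the higher genes that the rule did not use, 621 in the chosen nuclei of library 1 and 109 in library 2, at 2203 against 636 CPM and 1292 against 394. The noncoding gene 2610307P16Rik had the largest ratio, 4.14 (3.70 to 4.63) and 5.46 (3.84 to 7.54). Msi2, an RNA-binding protein of progenitors, had ratios of 2.48 (2.18 to 2.81) and 3.28 (2.33 to 4.48), and Cd69, an early activation antigen, 2.41 (2.03 to 2.85) and 2.12 (1.34 to 3.19). Pan3, a deadenylase subunit whose gene begins next to Flt3 on the opposite strand at chr5:147430161, had ratios of 2.54 (2.26 to 2.86) and 2.26 (1.59 to 3.11). Immp2l, Atp2b4, Adgrl4, Ttc3, Wwox, Phactr2 and Fnbp1 made up the rest of the 22.

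**Figure D2:**
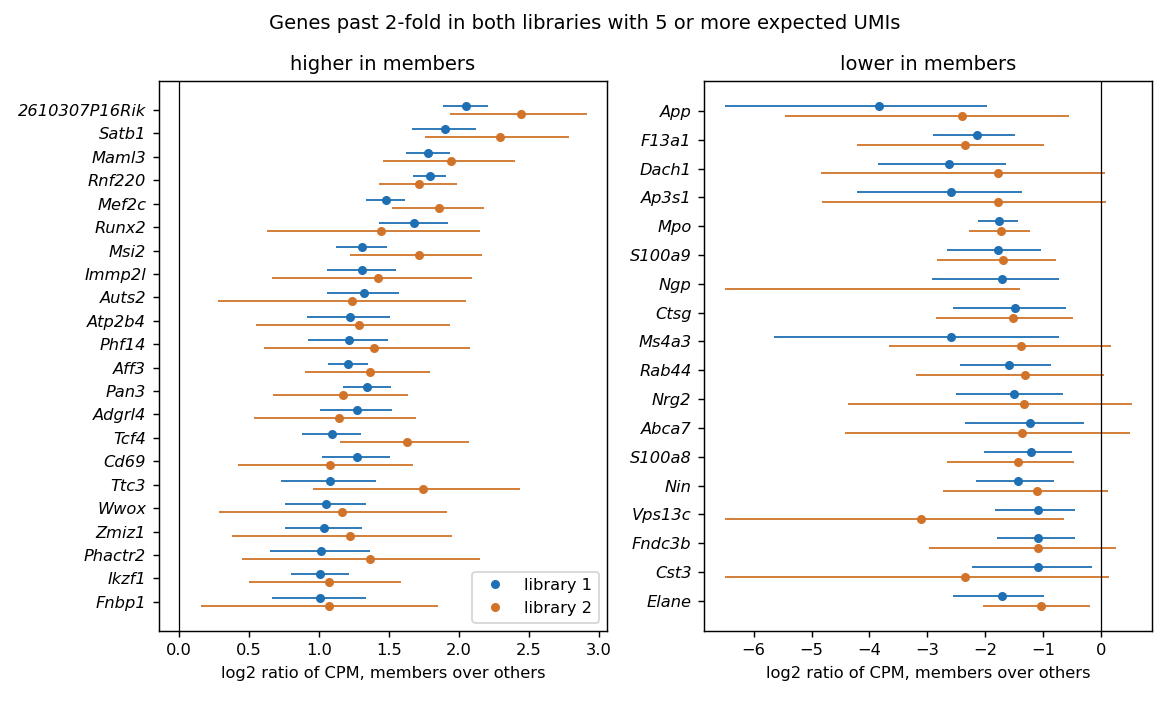
Log2 ratio of CPM, Flt3/Dntt nuclei (members) over others, without a pseudocount, for the 22 higher and 18 lower genes outside the rule with at least 5 expected UMIs. Points are library 1 (blue) and library 2 (orange), bars are exact 95% counting intervals cut at the edge of the axis, and Ngp has no point in library 2, where it had 0 UMIs. The intervals of all 22 higher genes stayed above 0 in both libraries, while in library 2 those of Dach1, Ms4a3, Cst3 and several more of the lower genes crossed 0.

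The 18 lower genes held 4 of the 6 granulocyte-monocyte genes that reached 5 expected UMIs, 3 of 4 late neutrophil genes and 1 of 2 monocyte genes, where 1.81% of all 1049 were lower. Mpo, the myeloperoxidase of neutrophil granules, was at 263 CPM in the Flt3/Dntt nuclei and 898 in the others of library 1, and at 379 and 1256 in library 2, ratios of 0.292 and 0.302. Elane, neutrophil elastase, was at 53.2 against 174 and 130 against 269, and Ctsg, cathepsin G, at 35.5 against 99.5 and 83.0 against 240. The alarmin genes S100a8 and S100a9 were lower in both libraries, with ratios of 0.432 and 0.290 in library 1 and 0.367 and 0.307 in library 2. Both calls were lost with a threshold of 3 and with at least 500 genes per nucleus, as were those of Ngp and Ms4a3. The Elane call was lost without the 5% of nuclei with the most UMIs and with a pseudocount of 10 CPM. F13a1, a coagulation factor subunit made by monocytes, was at 63.9 against 284 and 47.4 against 241. App, the amyloid precursor protein gene, counted 2 UMIs in the chosen nuclei of each library, ratios of 0.0700 (0.00846 to 0.253) and 0.188 (0.0228 to 0.682). Ngp, a neutrophil granule protein, had 8 UMIs in library 1 and 0 in library 2, where a floor of 3 UMIs put it at least 3.25-fold lower.

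The granulocyte-monocyte genes were also set against nuclei that should lack them, since free RNA gives every nucleus some counts. Their 12 summed levels came to 695 CPM (601 to 800) in the Flt3/Dntt nuclei of library 1 and 1126 (911 to 1376) in library 2. In erythroid-marker nuclei with 2 or more UMIs, which should lack these transcripts, the sums were 691 (573 to 826) and 1186 (903 to 1530). The other nuclei stood at 1870 and 2754 CPM, and the chosen nuclei lay near the erythroid-marker level in both libraries. That the erythroid-marker nuclei lack these transcripts was assumed, and this class was chosen after the values were seen. What part of the sum in the chosen nuclei is free RNA was not tested. At least 3 UMIs of the list were counted in 21 and 14 of the chosen nuclei.

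By the rule for abundant genes, at least 50 UMIs in the chosen nuclei of each library and no part in the selection, 47 genes qualified, Flt3, Dntt and Cmah being left out, and the 20 with the largest ratio ran from Rnf220 down to a ribosomal protein gene, Rps27a, at log2 ratios of 0.12 and 0.02. Rnf220 and Mef2c alone of these passed 2-fold in both. H2afy, which encodes the histone variant macroH2A, reached 1.20 and 0.96 on the log2 scale, Akap13 0.60 and 1.37, the nuclear RNA Malat1 0.53 and 0.73, Runx1 0.41 and 0.72 and the kinase gene Cdk6 0.37 and 0.59. Tra2b, Sfpq, Ddx5, Hsp90ab1, Rpl13, Rpl8, Rps9, Hmgb1, Dock10, Ptma, Pabpc1 and Rpsa lay between 0.03 and 0.61. A separate ranking took genes with at least 50 UMIs in the other nuclei of each library, whatever their count in the chosen ones, and its 10 lowest genes, Arid3a, Cecr2, Lef1, Aoah, Itga5, Cplx2, Klf9, Srm, Mdga1 and Tnfaip2, had 0 to 2 UMIs in the chosen nuclei. With 0 UMIs read as at most 3, Arid3a was at least 3.5-fold and Aoah at least 2.79-fold lower in library 1, and library 2 was too shallow to give any of the 10 a bound. The rule barred B-marker nuclei from the chosen nuclei and left them among the others. Low ratios of B precursor genes, such as Lef1 of the B lineage list, are thus in part set by the rule.

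Most genes chosen in one library had the same direction in the other. Of the genes with at least 5 expected UMIs, 31 outside the rule passed 2-fold upwards in library 1, and all 31 were above 1 in library 2, where 60.6% of all genes were, with a summed ratio of 2.56 (2.39 to 2.73). The 29 that passed downwards had a summed ratio of 0.521 (0.486 to 0.559) in library 2, and 28 of them were below 1, as were 39.4% of all genes. From library 2 to library 1 the summed ratios were 1.90 (1.86 to 1.94) for 82 higher genes and 0.682 (0.650 to 0.716) for 60 lower ones, of which 78 and 46 had the same direction, 95.1% and 76.7%, beside 64.7% and 35.3% of all genes. The same selection rule was applied to both libraries.

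By count, lymphoid priming genes held the most higher genes of any list, but the lists differ in size. Of 6 measured plasmacytoid dendritic genes 3 were higher, and of 4 measured T and NK genes 2. Of 20 measured lymphoid priming genes, 8 passed 2-fold upwards, where 3.84% of all genes did, with median log2 ratios of 0.84 and 1.13. Only 3 of the 20 reached 5 expected UMIs, and all 3 were higher. The 1 lower gene, Ikzf3, had 0 UMIs in the chosen nuclei of a library. Notch1, the receptor that drives T lineage choice, was at 273 against 60.7 CPM in library 1 and 166 against 41.1 in library 2. Lax1, a membrane adaptor of lymphocytes, counted 16 and 3 UMIs, at 56.8 against 7.99 and 35.6 against 3.21. Ccr9, a chemokine receptor of thymus-seeding cells, counted 6 and 2, Lsp1 23 and 4, and Ly6d 7 and 1. Il7r, the interleukin 7 receptor, did not pass in library 1 at a log2 ratio of 0.99, with 74.5 against 37.1 CPM, and in library 2 it stood at 71.1 against 11.7. Rag1 and Rag2 counted 4 and 1 UMIs in library 1 and 2 and 1 in library 2. Summed, the list stood at 4342 CPM (4102 to 4592) in the Flt3/Dntt nuclei against 1978 in library 1, and at 2477 (2152 to 2836) against 843 in library 2. B-marker nuclei had 3876 and 1829, Siglech nuclei 4438 and 1602, and erythroid-marker nuclei 1325 and 864.

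Stem cell genes were mixed. Meis1, a homeobox gene of stem cells and early progenitors, passed 2-fold, at 404 against 146 CPM and 142 against 55.7. Mecom, which encodes EVI1, was at 163 against 49.0 and 47.4 against 26.7. Tek was lower, with 0 UMIs in the chosen nuclei of a library. The median over 13 measured genes was 0.30 and 0.47 on the log2 scale, but the library 2 median fell below 0 under 5 of 7 alternatives, for example to -0.04 with median-of-ratios scaling and -1.44 without the deepest nuclei. The summed list was at 937 against 475 CPM in library 1 and 356 against 212 in library 2. Stem-marker nuclei, chosen by 2 or more UMIs of Mecom, Hlf, Prdm16 and Myct1, had 3331 and 1918, high levels which that choice fixed in part, so the gap between the classes is a description. Flt3 in those stem-marker nuclei was at 227 and 142 CPM and Dntt at 18.7 and 14.9, both far below the levels of the chosen nuclei, which the rule fixed.

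Markers of B, plasmacytoid dendritic, T and NK cells went in both directions, with 6 higher genes and 6 lower ones over 22 measured in these lists, beside 3.84% higher and 9.26% lower over all genes. All 6 lower ones had 0 UMIs in the chosen nuclei of a library. Of 12 measured B lineage genes, Bank1 was higher, with 16 and 1 UMIs, and 4 were lower, among them Vpreb3, Ms4a1 and Lef1. The list median was -1.78 in library 1 and 0.03 in library 2, where it changed sign under 6 of 7 alternatives, and the summed level was 156 against 406 CPM and 107 against 92.0. At least 3 UMIs of the list occurred in 2 and 0 chosen nuclei. Because the exclusion of Ebf1 and Pax5 left B-marker nuclei among the others, low values of this list are in part set by the rule. Of 6 measured plasmacytoid dendritic genes, Tcf4, Runx2 and Ly6d were higher and Pacsin1 lower, and Spib, Klk1 and Cd209d were at 0 in both libraries. Summed, that list stood at 1408 against 686 CPM and 770 against 332, carried mainly by Tcf4 and Runx2. The part of such cells in the result was not tested. Gata3 and Tox were higher among 4 measured T and NK genes, Gata3 on 3 and 1 UMIs and Tox at 174 against 29.0 CPM and 35.6 against 11.9, and Il2rb was lower.

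On the myeloid and erythroid side 0 genes of these lists were higher, where 3.84% of all genes were, a share too small for so few genes to fall clearly short of it. The lower ones stand beside 9.26% of all genes. Of 12 granulocyte-monocyte genes 5 were lower (Mpo, Elane, Ctsg, Cebpe and Ms4a3), of 6 late neutrophil genes 5, of 8 monocyte genes 3 (Ccr2, Fn1 and F13a1), of 7 erythroid genes 4 (Gata1, Car1, Ank1 and Aqp1), of 6 basophil and mast genes 4 (Prss34, Cpa3, Ms4a2 and Il1rl1), of 4 megakaryocyte genes 1 (Itga2b) and of 6 conventional dendritic genes 0. Of the lower genes, 1 of the granulocyte-monocyte list, 2 of the late neutrophil list, 1 of the monocyte list and all 4 erythroid, 4 basophil and mast and 1 megakaryocyte genes had 0 UMIs in the chosen nuclei of a library. Late neutrophil transcripts summed to 167 against 498 CPM and 273 against 865, and erythroid ones to 31.9 against 61.1 and 0 against 26.7. The transcription factor list for early progenitors had 7 of 39 higher (Ikzf1, Tcf4, Runx2, Satb1, Mef2c, Meis1 and Gata3), beside the 3.84% of all genes, and 2 lower, Spi1 with 2 and 0 UMIs and Gata1.

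Few genes of the pathways around the selecting genes passed, beside 3.84% higher and 9.26% lower over all genes. Of 21 measured genes of FLT3 signalling, 0 passed 2-fold either way, with median log2 ratios of 0.11 and 0.19. Inpp5d, the SHIP1 phosphatase, was at 0.95 and 1.44 and Pik3r1, a PI3 kinase subunit, at 0.38 and 0.34. Beside Dntt, the V(D)J joining list had 1 of 12 higher, Xrcc5 (Ku80), on 14 and 2 UMIs. Around Cmah and St8sia1, St3gal2 was higher and St3gal5 lower of 15 sialic acid and ganglioside genes. Of 9 semaphorin receptor and ligand genes, Nrp2 was lower and Sema4d stood at 0.87 and 1.96. Of 30 S phase genes 0 were higher and 1 lower (Cdc6), with medians of -0.13 and -0.24, and of 30 G2 and mitosis genes 0 and 1 (Nek2), with medians of -0.41 and -0.12. St3gal5, Nrp2, Cdc6 and Nek2 each had 0 UMIs in the chosen nuclei of a library.

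The RNA of some genes outside the rule changed in steps up to the threshold. Nuclei passing the exclusions were grouped by their sum over the 6 genes, with 3589 nuclei at 0 in library 1 and 5999 in library 2. Mef2c stood at 404, 708, 1095 and 1240 CPM at sums of 0, 1, 2 and 3 in library 1 and at 1657 for 4 to 5, and at 217, 390, 410, 704 and 985 in library 2. Satb1 went from 102 through 431 at a sum of 2 to 594 at 4 to 5 in library 1, and from 59.8 through 292 to 470 in library 2. Mpo went the other way, from 1156 through 505 to 240 in library 1 and from 1378 through 785 to 412 in library 2. In the 49 nuclei at sums of 6 to 9 in library 1, Mef2c stood at 1589 (1351 to 1857) and Satb1 at 563 (425 to 731) CPM, each with an interval that includes its level at 4 to 5. Rnf220 went from 2113 (1898 to 2346) to 2394 (2099 to 2718) and Notch1 from 192 (131 to 271) to 402 (287 to 548), and of these 4 genes only Notch1 had intervals that do not overlap. In library 2 that range holds 5 nuclei, with 12 UMIs of Mef2c, 11 of Rnf220 and 2 each of Satb1 and Notch1. The values at a sum of 3 lay between those at 2 and at 4 to 5 for Mef2c and Satb1 in both libraries. Median UMIs per nucleus also moved, from 1630 at a sum of 0 to 1884 at 3 in library 1, and stood at 1524 at both sums in library 2.

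**Figure D3:**
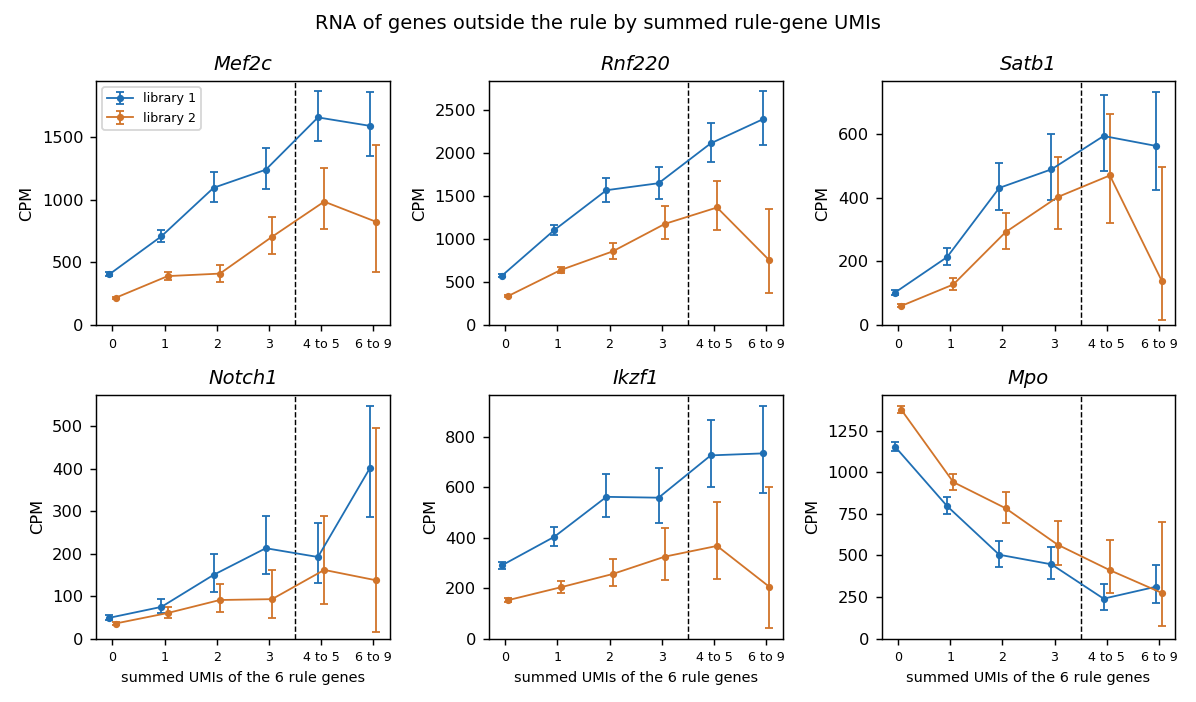
CPM of Mef2c, Rnf220, Satb1, Notch1, Ikzf1 and Mpo (vertical axes) in nuclei grouped by summed UMIs of the 6 selecting genes (horizontal axes), for library 1 (blue) and library 2 (orange), with exact 95% Poisson intervals and the threshold as a dashed line. The first 5 genes climbed from 0 to 4 to 5 in both libraries except for Notch1 between 3 and 4 to 5 and Ikzf1 between 2 and 3 in library 1, Mpo fell, and the point of library 2 at 6 to 9 rests on 5 nuclei.

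Within the chosen nuclei, those with a Dntt UMI were set beside those without, as a description, because Dntt belongs to the rule and nuclei without it reached 4 through the other 5 genes. Flt3 was at 1079 CPM with Dntt and 1429 without in library 1, and median UMIs were 1874 and 2236. In library 1 the 93 nuclei with Dntt had 707 CPM of Satb1 (591 to 839) and the 42 without had 414 (296 to 564), and the lymphoid list was at 4641 (4336 to 4961) and 3769 (3392 to 4177). Stem genes went the other way, at 815 (690 to 956) with Dntt and 1170 (964 to 1407) without, as did Runx2, at 453 (362 to 561) and 694 (538 to 881). In library 2, with 31 and 15 nuclei, Satb1 was at 362 (227 to 548) and 508 (263 to 887) and the lymphoid list at 2502 (2120 to 2933) and 2413 (1827 to 3126), so the Satb1 order of library 1 was not seen there. Runx2 also stood in the opposite order, at 214 (114 to 366) and 127 (26.2 to 371) on 13 and 3 UMIs. Stem genes were at 313 (188 to 488) and 466 (232 to 833), the order of library 1 with intervals that overlap.

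Between the libraries, most of the genes measured were lower in library 2, in the chosen nuclei and in the others. The 472 genes measured had at least 50 UMIs in the chosen nuclei of 1 library and 10 in those of the other. Those nuclei held 281887 UMIs in library 1 and 84382 in library 2, so genes high in library 1 passed more easily. The number of genes below 0 is in part set by that limit. Over these genes the median log2 ratio of library 2 over library 1 was -0.55 in the Flt3/Dntt nuclei and -0.73 in the others, with 406 and 424 genes below 0, and 418 of the 472 (88.6%) had the same direction in both. In the Flt3/Dntt nuclei the median was -0.21 once the ribosomal RNA locus was left out of the totals. Beside that median, Cdk8 was highest at a log2 ratio of 1.08, followed by Fosb at 1.06, Lars2 at 0.96, Camk1d at 0.88 and Chchd2 at 0.82. Lowest were Angpt1 at -1.88, Auts2 at -1.74, Ripor2 at -1.72, Vav3 at -1.70 and Kcnq5 at -1.64, each on 10 to 13 UMIs in library 2, close to the limit of 10. The other nuclei had the same direction for 9 of these 10, a share close to that over all 472, for example 0.97 for Camk1d and -1.66 for Auts2, and Fosb, an immediate early gene, was the exception at -0.27. Flt3 and Dntt, which the rule used, were at -0.34 and -0.01. Treatment and any technical difference between the libraries cannot be told apart here.

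In chromatin, which took no part in the selection, more peaks were called lower than higher in the Flt3/Dntt nuclei. Both limits on counts below are filled mainly by the other nuclei and so favour peaks open in those. The split is therefore not read as a trait of the chosen nuclei. Of 171725 peaks with 50 counts or more in each library, 6284 were higher by 2-fold in both (3.66%) and 29138 lower (17.0%). As with RNA, most of the lower calls, 27250, had 0 counts in the chosen nuclei of a library. Of the 32680 peaks with at least 5 expected counts, 298 were higher (0.912%) and 1874 lower (5.73%), and 762 of the lower ones had 0 counts in a library. Promoters made up 41.2% of these 32680 peaks, 12.1% of the higher and 9.87% of the lower ones. Peaks chosen in library 1 had in library 2 a summed ratio of 1.94 (1.88 to 1.99) for 700 higher peaks and 0.498 (0.486 to 0.511) for 3153 lower ones, and 85.7% and 86.5% of them had the same direction, beside 44.4% and 55.6% of all peaks. From library 2 to library 1 the ratios were 1.5 (1.48 to 1.51) and 0.763 (0.757 to 0.769), with 78.8% and 75.1% in the same direction, beside 43.7% and 56.3% of all peaks.

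Sites that gained or lost accessibility did so in steps that followed the RNA sum. Peaks higher in library 1 stood in library 2 at 6672 CPM (here ATAC counts per 1000000 counts in peaks) at a sum of 0, 8771 at 1, 11042 at 2, 12482 at 3 and 13784 at 4 to 5, and the lower peaks at 38269, 31710, 25247, 20838 and 18138. Nuclei with 1 UMI of the 6 genes thus differed from nuclei with 0 in a measurement that the sum did not use. In library 1, the peaks higher in library 2 went from 16949 through 24356 at a sum of 2 to 28061.

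**Figure D4:**
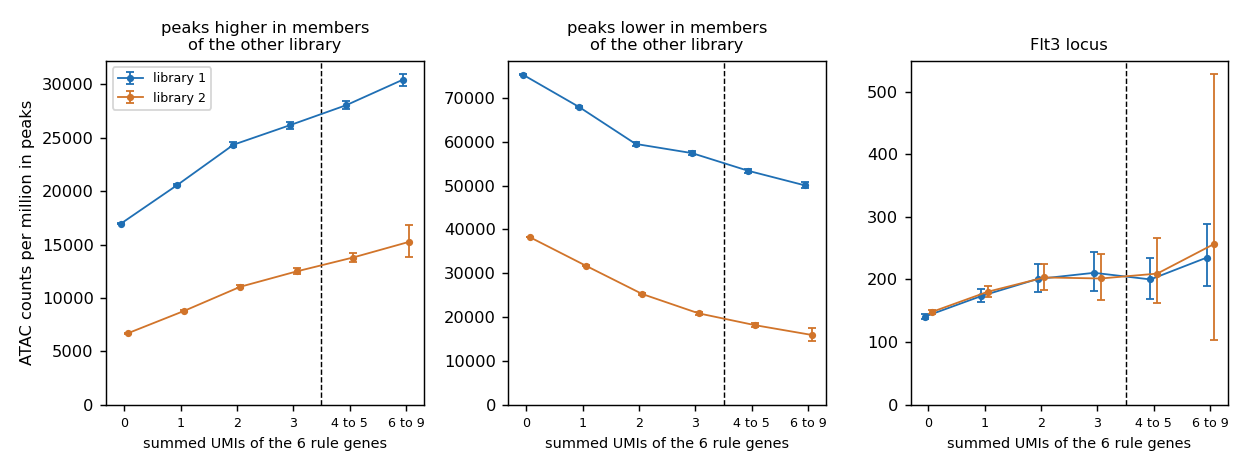
ATAC CPM in peaks (vertical axes) in nuclei grouped by summed UMIs of the 6 selecting genes (horizontal axes), for peaks higher or lower in the members of the other library and for the 19 peaks of the Flt3 locus, with 95% counting intervals on halved counts. Library 1 is blue and library 2 orange, and each step up to the threshold (dashed) raised the first set and lowered the second, while the Flt3 locus went from 141 and 148 at a sum of 0 to 201 and 203 at 2 and stayed near there at 4 to 5.

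Accessibility at the selecting genes is given next, with no comparison of its size with the RNA ratios, which the rule itself made large. The Flt3 promoter peak (chr5:147399901-147400808) was at 62.6 CPM in the Flt3/Dntt nuclei and 34.6 in the others of library 1, a ratio of 1.81 (1.41 to 2.29), and at 55.9 and 34.4 in library 2, 1.62 (0.983 to 2.53). Stem-marker nuclei were at 49.99 and 50.8, B-marker nuclei at 36.2 and 38.7 and erythroid-marker nuclei at 10.3 and 21.7. Over the 19 peaks of the Flt3 gene the ratio was 1.38 (1.21 to 1.56) and 1.40 (1.11 to 1.76). At Mn1 the promoter had ratios of 2.26 (1.43 to 3.42) and 2.05 (0.852 to 4.15) and the peaks over the gene 1.11 (0.80 to 1.5) and 1.19 (0.68 to 1.93). At St8sia1 the promoter had 1.12 (0.66 to 1.76) and 2.71 (1.44 to 4.65) and the gene 1.35 (1.19 to 1.52) and 1.46 (1.18 to 1.80). At Cmah the promoter had 1.49 (1.03 to 2.08) and 1.44 (0.60 to 2.92) and the gene 1.15 (0.98 to 1.34) and 1.11 (0.80 to 1.51), and at Sema3d they had 1.48 (0.90 to 2.30) and 2.31 (1.10 to 4.27), and 1.22 (0.82 to 1.75) and 2.20 (1.26 to 3.59). The intervals of library 1 lay above 1 at the Flt3, Mn1 and Cmah promoters and over the Flt3 and St8sia1 genes, and those of library 2 at the Sema3d and St8sia1 promoters and over the Flt3, St8sia1 and Sema3d genes. Above 1 in both were thus the peaks over Flt3 and St8sia1, and no promoter. No peak lay at the Dntt promoter. The peaks over the Dntt gene had ratios of 0.95 (0.70 to 1.27) and 1.48 (0.90 to 2.29), whereas the upstream peak printed above, chr19:41021972-41022888, had 1.94 (1.34 to 2.74) and 2.13 (0.915 to 4.22). That is the second most open peak within 50 kb of Dntt, and the most open one, chr19:41015890-41016815, had 0.98 (0.622 to 1.47) and 1.14 (0.473 to 2.29). All 25 peaks within that distance together had 1.11 (0.971 to 1.26) and 1.25 (0.975 to 1.58).

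The peaks over Ebf1 and Pax5 were more open than in the others, and a difference at their promoters was not detectable at this depth. The 34 peaks over Ebf1, whose RNA the rule kept low, stood at 130 and 128 CPM in the chosen nuclei, against 100 and 71.8 in the others, 272 and 274 in B-marker nuclei and 66.02 and 47.4 in stem-marker nuclei. Pax5 showed the same order, with ratios over the others of 1.31 (1.10 to 1.54) and 1.64 (1.19 to 2.21). The Ebf1 promoter had ratios of 0.70 (0.399 to 1.14) and 1.56 (0.671 to 3.08), and the Pax5 promoter 0.73 (0.218 to 1.80) and 1.61 (0.193 to 5.87), below 1 in library 1 and above it in library 2 with intervals that include 1. At Siglech, the other exclusion gene, the 3 peaks over the gene had ratios of 1.54 (0.89 to 2.48) and 1.87 (0.68 to 4.09). The 12 peaks within 50 kb of it had 1.81 (1.52 to 2.14) and 1.47 (1.02 to 2.07). The Siglech promoter had 1.60 (0.91 to 2.63) and 1.75 (0.57 to 4.11), with intervals that include 1. Within 50 kb of Ebf1 the ratios were 1.16 (0.997 to 1.35) and 1.64 (1.24 to 2.13). Within 50 kb of Pax5 they were 1.05 (0.907 to 1.20) and 1.25 (0.963 to 1.61). Which intervals lay above 1 thus depended on the window. The 45 peaks over Mecom were at 180 and 214 in the chosen nuclei, 207 and 192 in stem-marker nuclei and 65.1 and 81.2 in B-marker nuclei. Over the gene bodies the summed levels of the selected nuclei thus lay between stem-marker and B-marker nuclei at Ebf1 and Pax5 and near stem-marker nuclei at Mecom. Whether single nuclei had such levels or the sums mix unlike nuclei was not tested. Of the genes with the clearest RNA gains, Satb1 had promoter ratios of 0.94 (0.74 to 1.18) and 0.70 (0.42 to 1.11), Rnf220 of 1.22 (0.97 to 1.5) and 1.04 (0.65 to 1.58) and Mef2c of 1.09 (0.88 to 1.34) and 1.46 (1.03 to 2.01).

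Of the 6 largest gains among peaks with at least 5 expected counts, 4 lay in introns, 1 between genes and 1 in an exon. The peak in the Nr4a1 intron (chr15:101258370-101259040) had 97 counts in the Flt3/Dntt nuclei of library 1 and 26 in library 2, ratios of 4.60 (3.35 to 6.17) and 4.97 (2.63 to 8.58). Nr4a1, an immediate early nuclear receptor, also had more RNA, 206 against 31.5 CPM and 201 against 23.5. The peak 136251 bases downstream of the Mn1 start (chr5:111553246-111554141) had ratios of 4.42 (3.39 to 5.69) and 5.30 (3.44 to 7.82) and carries the PU.1 letters shown above. The Rtn4rl1 and Shb peaks had ratios of 4.30 and 4.18, and 3.58 and 4.85, on 84 and 22, and 86 and 27 counts. Of the 10 peaks with the largest ratio among those with at least 50 counts, the first, in an Auts2 intron (chr5:132220375-132221185), had log2 ratios of 3.8 and 4.29 on 35 and 14 counts. At the lower end the Fam49b intron and the peak far from Fzd1 had 0 counts in both libraries against 11.6 and 10.2 CPM in the others of library 1.

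The gained and lost peaks differed in motif content. CAGCTG occurred in the central 300 bases of 41.4% (35.8 to 47.2) of 297 higher peaks, 20.7% of all 32659 peaks measured, 23.3% of peaks at the same GC content and 19.0% of the lower peaks. CAGGTG occurred in 35.7% (30.2 to 41.4), 18%, 19.3% and 10.6% in that order. RUNX letters were in 20.2% (15.8 to 25.2) of the higher peaks and 9.8% of all. CEBP letters, bound by the C/EBP factors of myeloid cells, were in 37.2% (35.1 to 39.5) of 1874 lower peaks, 12.9% of all, 19.3% at the same GC content and 8.1% (5.2 to 11.8) of the higher ones. AP-1 letters (TGANTCA) were in 19.5% of the lower, 14.1% of the higher and 9.9% of all peaks. Because promoters were rarer among the called peaks, the shares were also taken outside promoters. There CAGCTG was in 41.4% of the higher peaks and 23.8% of all, CAGGTG in 36.4% and 18.8%, RUNX in 19.9% and 14.0%, and AP-1 in 14.2% and 13.8%. Of the lower peaks outside promoters, 37.7% held CEBP, against 17.02% of all, and 20.1% held AP-1, against 13.8%. PU.1 letters did not stand apart, in 11.1% (7.8 to 15.2) of the higher peaks, 10.4% at the same GC content, 11.6% of the lower ones and 8.7% of all. Outside promoters they were in 11.5% of the higher peaks and 12.2% of all. MEF2 letters (CTATTTNTA) were as rare in the higher peaks, 1.0%, as in all, 1.1%. With the larger set of peaks of at least 50 counts the same motifs stood out by less, CAGCTG at 27.0% of 6282 higher peaks against 19.7% of all and CEBP at 20.3% of 29136 lower peaks against 14.2%. A match is a stretch of letters and not a bound site.

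**Figure D5:**
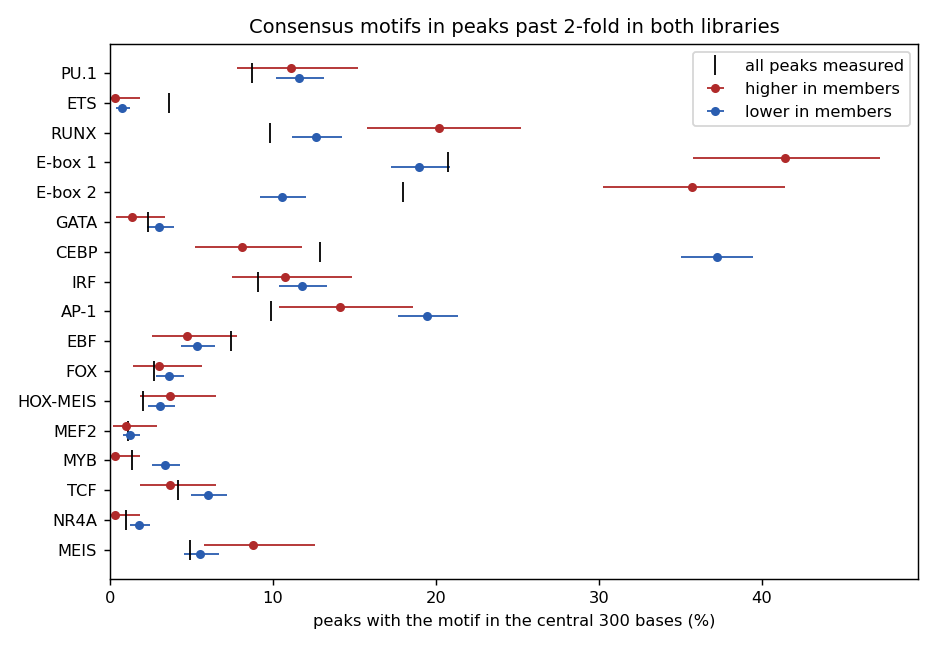
Share of peaks with each of 17 consensus motifs in the central 300 bases, for 297 peaks higher (red) and 1874 lower (blue) in the Flt3/Dntt nuclei, with exact 95% intervals, and for all 32659 peaks measured (black ticks). E-box 1 is CAGCTG and E-box 2 is CAGGTG; they and RUNX stand apart in the higher peaks at 41.4%, 35.7% and 20.2%, and CEBP in the lower peaks at 37.2%.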

How the data were processed

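The authors sequenced nuclear RNA and ATAC of the same nuclei and deposited 1 matrix of raw counts (UMIs of 32272 genes and ATAC counts in 174339 peaks for 18961 barcodes), made per the submitters' processing notes with Cell Ranger ARC 2.0.0 on GRCm38 (mm10), with Seurat 4.0.3 and Signac 1.3.0 also named. No annotation of the nuclei or doublet call was used, and no doublet caller was run. Leaving out the 5% of nuclei with the most UMIs was tried instead. The Flt3/Dntt nuclei and all gene lists were chosen with earlier results of these data known.

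Counts were summed over the chosen and over all other kept nuclei within each library and scaled to 1000000 (CPM). Calls needed 2-fold in both libraries, with a pseudocount of 1 CPM for RNA and 0.1 CPM for ATAC. Intervals were exact Clopper-Pearson, Poisson or conditional binomial at 95%, for ATAC on halved counts because a fragment can be counted at both ends, and PCR and free RNA are outside them. No depth limit beyond these counts is known. Named genes were the selecting genes, the 20 largest ratios with at least 50 UMIs in the chosen nuclei and the 10 smallest with at least 50 in the others, list genes past 2-fold or with the most UMIs, and the 5 most different between libraries each way; genes and peaks with at least 5 expected counts, with Nr4a1, Il7r, Rag1, Rag2, Kit and the peaks shown by sequence, were added after the values were seen. Genes and peaks were placed with the GENCODE annotation of GRCm38, a promoter peak being one that overlaps 1000 bp on either side of a start. Motifs were searched on both strands, and the RefSeq promoter table was matched by symbol. Scripts used Python 3.11.15, numpy 2.4.6, scipy 1.17.1, pandas 2.3.3, matplotlib 3.10.9 and samtools 1.23.1, and were tested on simulated data. Some genes of the lists and marker sets are not reported here.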

Additional observations from a re-analysis of the deposited data

How the results depend on the processing

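No paired analysis was possible because each group holds 1 sample and no label ties a library to its group, and for the same reason no replicate could be left out. Among the summary values 142 kept within the limits set and 39 moved, and among single genes and peaks 185 kept and 11 moved; no called value changed sign, although medians near 0 did, as given above for the stem and B lineage lists. The share of Flt3/Dntt nuclei in library 1 and library 2 was 3.83% and 1.56% with a threshold of 3, 1.57% and 0.207% with 5, 3.09% and 1.41% with at least 500 genes per nucleus, and 0.946% and 0.198% with nuclei thinned to 1000 UMIs. Against 408 higher genes, there were 271 with a threshold of 3, 250 with 500 genes, 211 with median-of-ratios scaling, 124 with a pseudocount of 10 CPM and 23 with 5 expected UMIs. Against 983 lower genes, there were 455 with a threshold of 3, 1649 with 5, 500 with 500 genes, 1619 with at least 5 UMIs, 68 with a pseudocount of 10 CPM and 19 with 5 expected UMIs. Against 6284 higher peaks, there were 3008 with 200 counts, 3008 with a pseudocount of 1, 4162 with median-of-ratios scaling and 298 with 5 expected counts. Against 29138 lower peaks, there were 16767 with a threshold of 3, 47035 with 5, 11097 with 200 counts, 13298 with a pseudocount of 1 and 1874 with 5 expected counts. Of the 22 higher and 18 lower genes with 5 expected UMIs, 15 and 8 stayed called with a threshold of 3, 18 and 15 with 5, 14 and 10 with 500 genes, 18 and 17 without the deepest nuclei, 15 and 18 without the ribosomal RNA locus, 6 and 18 with median-of-ratios scaling, 19 and 13 with a pseudocount of 10 CPM and 17 and 12 in nuclei of 1500 to 5000 UMIs. The limits on expected counts, and the classes of stem-marker and erythroid-marker nuclei with 2 in place of 4 UMIs, were chosen after seeing the data. Binned by UMIs per 1000, peaks higher and lower in library 2 reached 1.74 and 0.677 times the level of nuclei at 0 in library 1, where sums gave 1.66 and 0.708. With 500 bases, the motif share over that of all peaks was 1.24 for CAGCTG, 1.28 for CAGGTG, 1.41 for RUNX and 1.32 for CEBP in lower peaks, where 300 bases gave 1.37, 1.45, 1.53 and 1.43, and peaks with 5 expected counts gave 2.0, 1.99, 2.06 and 2.89. The median ratio of library 2 over library 1 was -0.21 without the ribosomal RNA locus and -0.55 with it. The cause of these moves was not tested, apart from counts that fall or rise because fewer or more features were tested. Library 2, with 46 chosen nuclei and 84382 UMIs in them, sets the precision of every call.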
